A study of Mus musculus with 48 samples.

Results

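Activation of Notch2 was set against a floxed Notch2 gene in mice that carried the same Dclk driver. The comparison used 6 of the 48 arrays in the series, chosen by their genotype labels alone: 3 arrays of pL2_Dclk_Notch2IC_LacZ (called Notch2IC here) and 3 arrays of pL2_Dclk_Notch2fl_fl (called Notch2fl here). Each array measured total RNA from whole tissue of the squamocolumnar junction and cardia, where the squamous lining of the oesophagus and forestomach meets the glandular stomach. The series studies the progression of Barrett oesophagus, and this pair of groups addresses how Notch signalling through the Dclk driver bears on it.

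All 6 arrays came from mice with pL2, the study's IL-1b mouse model of Barrett oesophagus, so both groups share that transgene. Notch2fl is a second altered genotype and not a control with an unaltered Notch2 gene. Notch2IC is the usual name of the intracellular domain of Notch2, which signals without a ligand. In Notch2fl, the label says that both Notch2 alleles are floxed. LacZ is left unexplained in the labels, as is which Cre allele each animal had, and no Notch2IC label reports the state of the native Notch2 alleles. The mice behind all 6 arrays were kept at the MRI facility on chow. The Notch2IC mice were 12, 12 and 11 months old and had received tamoxifen at 6, 6 and 5 months. The Notch2fl mice were 12, 11 and 10 months old, with tamoxifen at 6, 5 and 5 months. For context, the same pair of genotypes with the Lgr5 driver (Lgr5 Notch2IC aged 10, 11 and 10 months, with tamoxifen at 4, 4 and 4 months, and Lgr5 Notch2fl aged 10, 11 and 11 months, with tamoxifen at 4, 5 and 4 months) and pL2 alone at the same facility and diet (aged 12, 12 and 12 months, no tamoxifen listed) are set beside it, with 3 arrays in each. The labels do not say whether arrays of a group came from separate animals, so p-values measure spread between arrays. That spread was pooled within all 16 groups of the 48 arrays and not taken from the compared groups alone.

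Notch receptors are cut after a ligand on a neighbouring cell binds them. The freed intracellular domain enters the nucleus, joins the DNA-binding protein RBPJ and its coactivators, and switches on targets such as the Hes and Hey repressors. In the intestine, Notch signalling keeps cells proliferative or absorptive and holds back secretory fates. Dclk1 marks tuft cells, chemosensory epithelial cells whose identity depends on the factor Pou2f3 and which signal through the ion channel Trpm5. The arrays measured whole tissue, so any change limited to driver cells is averaged with all other cells.

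Values are log2 RMA expression levels, normalised by the authors. A difference is the Notch2IC mean minus the Notch2fl mean on that scale, given with its standard error, and a gene was called when its limma p-value, adjusted by Benjamini-Hochberg over 15242 tested genes, was below 0.05. Replicate numbers follow deposit order and pair nothing. The array medians of the 48 arrays lay between 4.03 and 4.27, and no 2 arrays were identical. Gastric pit genes averaged 11.88, 12.17 and 12.16 in Notch2IC arrays and 11.76, 11.96 and 12.08 in Notch2fl arrays, and squamous suprabasal genes averaged 10.42, 9.93 and 8.99 against 10.58, 10.33 and 10.17, so both epithelia of the labelled tissue were present on every array. Notch2fl replicate 1 stood apart in intestinal genes: intestinal enterocyte genes averaged 8.69 there and 6.21 to 6.45 on the other 5 arrays, and Paneth cell genes 7.0 against 3.67 to 4.50. Notch2IC replicate 3 was the lowest of the 6 in squamous suprabasal genes. Notch2IC replicate 2 had Xist at 6.33 and the Y-linked Eif2s3y at 8.61, while the other 5 arrays had Xist between 10.99 and 11.82 and Y-linked genes no higher than 3.15. Notch2IC replicate 2 was therefore the single array with a male pattern.

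Only 5 of the 15242 tested genes were called, 2 higher and 3 lower in Notch2IC (0.0328% of genes, 0.0131% higher and 0.0197% lower). Rpl3 and 5830417I10Rik rose, and Sprr4, Tpm3 and Tmod4 fell. All 5 were named because they are the whole list of calls; 5830417I10Rik falls outside the naming rule and was added after its values were seen. At an unadjusted p below 0.05 there were 793 genes (5.2%), 304 higher (1.99%) and 489 lower (3.21%).

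Rpl3, a protein of the large ribosomal subunit, had 9.90, 10.22 and 10.00 in Notch2IC arrays and 8.21, 7.97 and 8.14 in Notch2fl arrays. The groups were far apart, and each was tight. Rpl3 averaged 10.04 ± 0.16 in Notch2IC and 8.11 ± 0.12 in Notch2fl (SD, n = 3 each), a 3.81-fold difference (1.93 ± 0.30 log2, adjusted p = 0.00305 in limma). Notch2fl lay at the level of pL2 alone, where Rpl3 had 7.62, 8.01 and 8.26. With the Lgr5 driver, Rpl3 had 7.83, 8.63 and 7.58 in Notch2IC against 7.65, 8.05 and 8.23 in Notch2fl, which overlapped (0.04 log2, adjusted p = 0.993). Among the 45 arrays outside Dclk Notch2IC, 1 reached the lowest of the 3 Dclk Notch2IC values, replicate 2 of the wild type at the same facility on chow, with 10.13; the next highest was 8.80. The gene has 3 entries on the array, and the call rests on the one with the highest mean. The other entries had 8.25, 7.77 and 7.99 in Notch2IC against 6.52, 8.09 and 8.02 in Notch2fl, and 4.34, 4.46 and 4.42 against 4.43, 4.49 and 4.62, both overlapping.

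Tpm3, a tropomyosin that binds along actin filaments, had 8.09, 8.41 and 8.57 in Notch2IC arrays and 9.66, 9.54 and 9.75 in Notch2fl arrays. Every Notch2IC array lay below every Notch2fl array. The means were 8.36 ± 0.24 and 9.65 ± 0.11, a 2.45-fold difference (-1.29 ± 0.24 log2, adjusted p = 0.015 in limma). Here it was Notch2fl that stood away from pL2 alone, at 7.98, 8.27 and 8.59 (Notch2fl minus pL2 1.37, adjusted p = 0.00507). A second entry for Tpm3 overlapped between the groups, with 6.04, 5.45 and 5.54 in Notch2IC and 5.00, 5.31 and 5.56 in Notch2fl.

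Tmod4, a tropomodulin that caps the pointed ends of actin filaments and is known from skeletal muscle, had 3.88, 4.15 and 4.12 in Notch2IC and 4.52, 4.85 and 5.19 in Notch2fl. The levels were low on the array scale, and the groups did not overlap. Means were 4.05 ± 0.15 and 4.86 ± 0.34, a 1.75-fold difference (-0.80 ± 0.15 log2, adjusted p = 0.0153 in limma). Skeletal muscle marker genes as a list averaged 3.56, 3.70 and 3.54 in Notch2IC and 4.45, 3.54 and 3.58 in Notch2fl. Of the 15 listed, 12 were tested and none was called. Replicate 1 of Notch2fl stood apart in this list, and its Tmod4 value of 4.52 was the lowest of its group. When list averages for muscle and squamous epithelium entered the fit, Tmod4 differed by -0.78 and was still called (adjusted p = 0.0463 in limma). The share of muscle tissue in the Tmod4 value was not measured. In bulk tissue, fewer cells of a type and less RNA per cell cannot be told apart.

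5830417I10Rik had 6.23, 6.62 and 6.46 in Notch2IC and 4.89, 5.67 and 4.37 in Notch2fl. All 3 Notch2IC arrays were above all 3 Notch2fl arrays, which were the more spread. Means were 6.44 ± 0.19 and 4.98 ± 0.66, a 2.75-fold difference (1.46 ± 0.25 log2, adjusted p = 0.01 in limma). Notch2IC was close to pL2 alone (6.17, 6.14 and 6.38), and Notch2fl lay below it (-1.26, adjusted p = 0.0169).

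Sprr4, a small proline-rich protein of the cornified envelope of squamous cells, had 4.53, 4.32 and 3.34 in Notch2IC and 7.32, 5.35 and 6.12 in Notch2fl. The groups did not overlap, and replicate 1 of Notch2fl was the highest array. Means were 4.06 ± 0.63 and 6.26 ± 0.99, a 4.60-fold difference (-2.20 ± 0.40 log2, adjusted p = 0.015 in limma). Notch2IC overlapped pL2 alone (3.81, 4.33 and 3.92), while Notch2fl was above it by 2.25 (adjusted p = 0.00556). The Sprr4 difference was -1.67 without replicate 1 of Notch2fl and was then no longer called (adjusted p = 0.517).

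**Figure D1:**
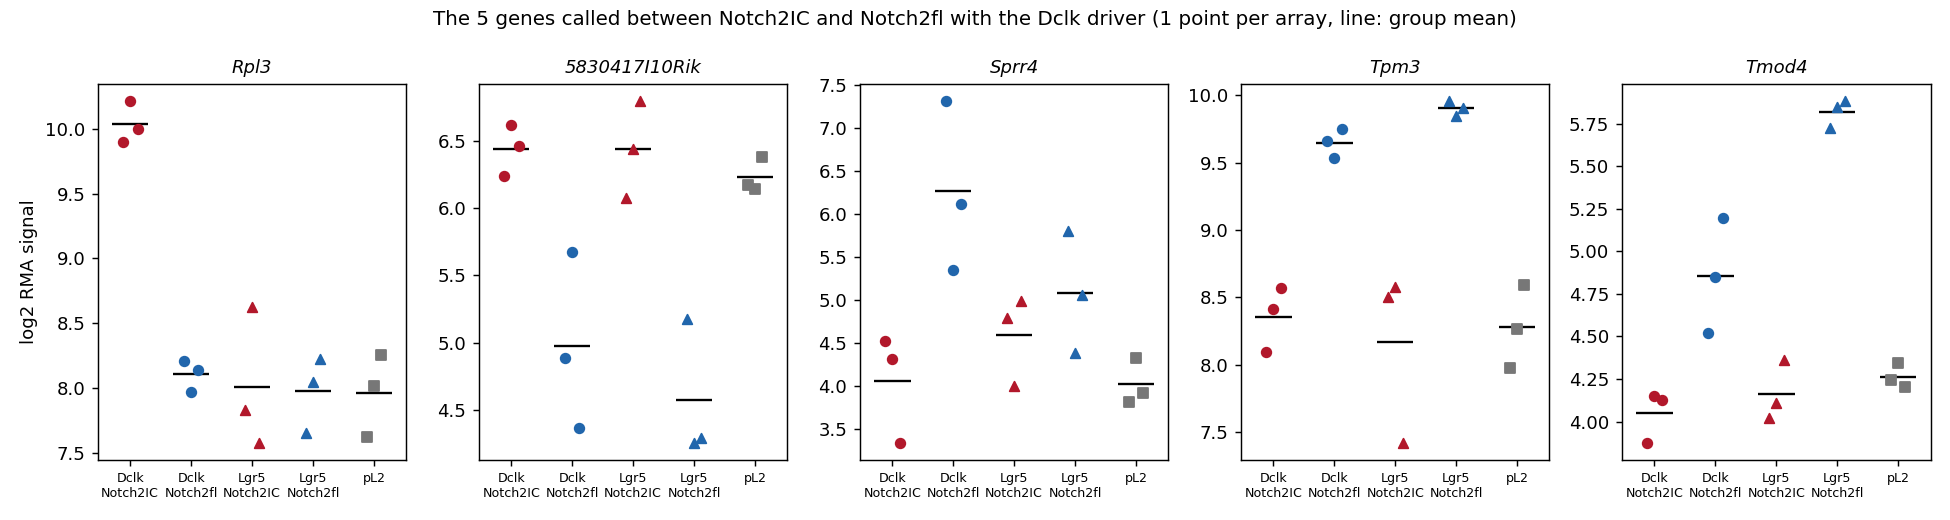
The log2 expression level (vertical axis) of each called gene on every array of 5 groups: Notch2IC and Notch2fl with the Dclk driver, the same pair with the Lgr5 driver, and pL2 alone. Points are arrays and short lines are group means. Rpl3 was high in the 3 Dclk Notch2IC arrays (9.90 to 10.22) and not with the Lgr5 driver, whereas Tpm3, Tmod4 and 5830417I10Rik separated Notch2IC from Notch2fl under both drivers.

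The number of calls depended on which arrays were fitted, more than the differences did. It was 0 without Notch2IC replicate 2 (847 genes at an unadjusted p below 0.05 in limma), 1 without Notch2IC replicate 3, 1 without Notch2fl replicate 3, 2 without Notch2fl replicate 1 and 3 without Notch2fl replicate 2, and 7 without Notch2IC replicate 1. Over the same 6 fits the differences kept their sign, with Rpl3 at 1.84 to 2.0, Tpm3 at -1.39 to -1.16, Tmod4 at -0.97 to -0.63, 5830417I10Rik at 1.16 to 1.81 and Sprr4 at -2.66 to -1.67.

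With the Lgr5 driver, 11 genes were called between Notch2IC and Notch2fl (0.0722% of genes), 7 higher (0.0459%) and 4 lower (0.0262%). The 2 comparisons share no array. Tpm3, Tmod4 and 5830417I10Rik were called in both with the same sign, which is 3 of the 5 Dclk calls and 3 of the 11 Lgr5 calls. Tpm3 had 8.51, 8.58 and 7.42 in Lgr5 Notch2IC against 9.96, 9.84 and 9.90 in Lgr5 Notch2fl (-1.73 ± 0.24, adjusted p = 6.99e-05). Tmod4 had 4.02, 4.11 and 4.36 against 5.72, 5.85 and 5.88 (-1.66 ± 0.15, adjusted p = 8.04e-09). 5830417I10Rik had 6.07, 6.43 and 6.80 against 5.18, 4.26 and 4.30 (1.86 ± 0.25, adjusted p = 6.99e-05). Under both drivers it was the floxed group that stood apart from the rest of the series. Over the 6 Notch2fl arrays of both drivers, Tpm3 lay between 9.54 and 9.96, against 7.42 to 8.64 on the 42 arrays of the series without a floxed Notch2. 5830417I10Rik lay between 4.26 and 5.67, against 5.70 to 6.80 on those 42. Tmod4 lay between 4.52 and 5.88, against 3.70 to 4.55, a slight overlap. Sprr4 was not called under the Lgr5 driver and overlapped there, with 4.79, 4.00 and 4.99 in Lgr5 Notch2IC against 5.81, 4.39 and 5.06 in Lgr5 Notch2fl (-0.49, adjusted p = 0.842).

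Of the 5 called genes, 4 are annotated on mouse chromosome 3, the chromosome of Notch2 itself, and Rpl3 on chromosome 15. Gene order was taken from RefSeq on GRCm38.p6, in which 15158 of the tested genes were found and 84 were not. Counted in tested genes along the chromosome, 5830417I10Rik lies 199 genes to one side of Notch2, Tpm3 155, Sprr4 114 and Tmod4 61, all on the same side. No gene was called among the 50 tested neighbours on each side of Notch2, where 3 of 100 had an unadjusted p below 0.05 (3%). Among the genes 51 to 200 steps away on either side, a range not set in the plan, 4 of 300 were called and 36 had an unadjusted p below 0.05 (12%). Of these 36, 15 were Lce genes of a single cluster, described below. Pglyrp4, Pglyrp3, Sprr3, Sprr4, Kprp, 2310050C09Rik and Flg2 of the same stretch (129 to 91 steps from Notch2) were also among the 36. All of these also enter the count for the whole chromosome. Neighbouring genes of 1 stretch thus made up much of the 12%, and the shares without that stretch were not counted. On the whole chromosome, 4 of 771 genes were called and 64 had an unadjusted p below 0.05 (8.3%), against 1 of 14471 called and 729 (5.04%) among all other tested genes, the 84 unplaced ones included. Under the Lgr5 driver, 4 of the 771 and 7 of the 14471 were called. The chromosome is that of the annotated gene, and where in the genome each probe matches was not checked. Tpm3 and Rpl3 are placed by gene, although only 1 entry of each carries the call. The other Tpm3 entry overlapped between the groups with a difference of 0.39, and the other Rpl3 entries overlapped too.

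**Figure D2:**
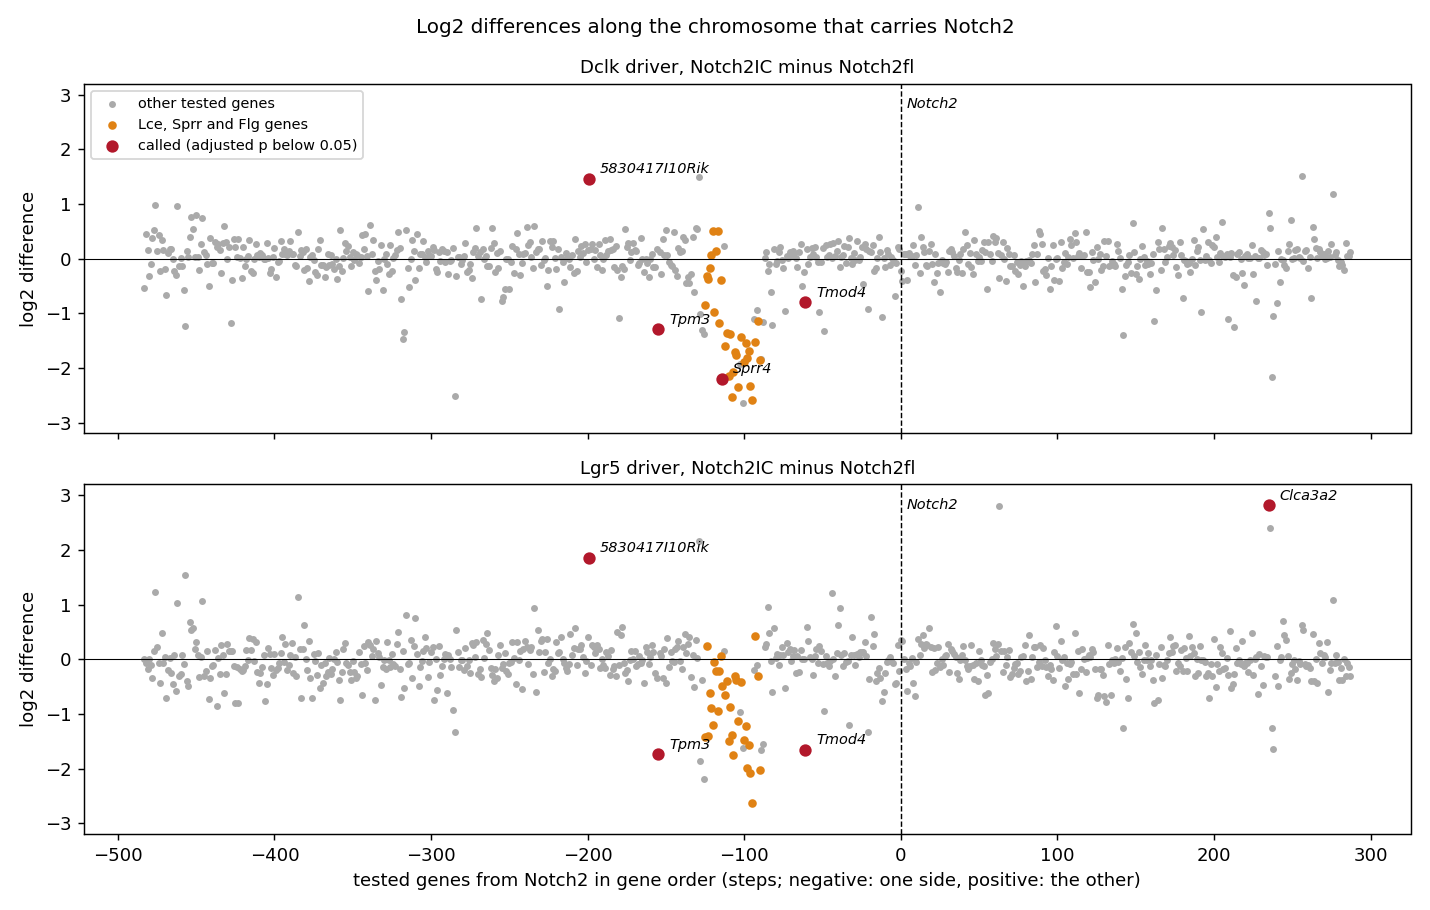
The log2 difference of Notch2IC minus Notch2fl (vertical axis) for tested genes on chromosome 3, ordered by their number of tested genes from Notch2 (horizontal axis, not a distance in bases), with the Dclk driver in the upper panel and the Lgr5 driver in the lower. Named points are called genes, in the upper panel the 4 at steps -199, -155, -114 and -61, and coloured points are Lce, Sprr and Flg genes, which cluster beside Sprr4.

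Beside Sprr4 lie other families of the cornified envelope, which were looked at after the values of Sprr4 were seen. The 17 tested Lce genes, whose late cornified envelope proteins are made as squamous cells end their maturation, lie 93 to 112 steps from Notch2. All 17 had a negative difference (over all tested genes 53.2% were positive), with a median of -1.76 (from -2.59 to -1.36), and 15 had an unadjusted p below 0.05, but none was called. Their mean level was 7.07, 6.77 and 4.03 in Notch2IC against 8.37, 7.68 and 7.43 in Notch2fl, and 5.58, 5.22 and 4.24 in pL2 alone. Replicate 3 of Notch2IC was far below the other 5 Dclk arrays and close to the lowest pL2 array, and without it the median was -0.88. For the Lgr5 driver the median was -1.23, 16 of 17 were negative and 2 had an unadjusted p below 0.05. The 11 tested Sprr genes had a median of -0.32 with 7 negative and 1 called, Sprr4, and the 13 S100a genes of the same stretch a median of 0.02 with 6 negative. Lce1g had 4.43, 3.63 and 2.88 in Notch2IC and 5.01, 5.34 and 5.75 in Notch2fl, without overlap (-1.72 ± 0.45, adjusted p = 0.556 in limma). Flg2, a filaggrin-like protein of the same region, had 3.61, 3.16 and 3.04 against 5.05, 4.28 and 3.93 (-1.15 ± 0.36, adjusted p = 0.772). Lce genes have similar sequences, so their probe signals may not be independent.

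None of the 10 tested Notch receptors and ligands was called. Notch2 itself had 8.90, 8.73 and 8.44 in Notch2IC and 9.08, 8.82 and 8.88 in Notch2fl, with 8.98, 8.66 and 8.76 in pL2 alone. The 2 groups and pL2 all overlapped (-0.23 ± 0.22 log2, 95% interval -0.68 to 0.21, adjusted p = 0.976 in limma). Where the Notch2 probes lie relative to the floxed exons or to the activated fragment was not checked, so this value is no check of either allele. Notch1 had 8.27, 8.41 and 7.69 in Notch2IC against 8.40, 8.54 and 8.02 in Notch2fl, overlapping (-0.20). Notch3, a receptor known from mural cells of vessels, had 7.91, 7.65 and 6.97 against 8.68, 7.97 and 7.68 (-0.60 ± 0.37, adjusted p = 0.929). Notch4, a receptor known from endothelium, was the single member of the list without overlap, with 6.54, 6.92 and 6.96 against 6.44, 5.92 and 6.39 (0.56 ± 0.22, adjusted p = 0.929). Over all tested genes, 7.75% had all 3 Notch2IC arrays above all 3 Notch2fl arrays and 5.84% had them below. Among ligands, the differences were -0.09 for Jag1, -0.60 for Jag2, 0.29 for Dll1 and 0.44 for Dll4. The median of the list was -0.14, beside 0.02 over all genes tested.

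The 17 tested genes of the signalling machinery had differences between -0.35 and 0.11 with a median of -0.03, and no member had groups that did not overlap. Rbpj, the DNA-binding partner of the intracellular domain, had 6.74, 6.95 and 7.04 in Notch2IC against 7.01, 7.17 and 7.17 in Notch2fl. The largest difference of the list was that of Numb, an inhibitor of Notch, at -0.35.

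Canonical Notch targets are shown with the letters that RBPJ is known to bind. The core TGGGAA was searched on both strands of RefSeq windows on GRCm38.p6 that run 250 bases before to 50 after each gene start. Read on the opposite strand it is TTCCCA. Of 32851 windows, 25.6% held it at least once and 3.79% held 2 or more. Windows were at hand for 9 of the 16 listed targets. Of these genes, 6 held a match (Hes5, Hey2, Hes7, Olfm4, Cr2 and Fcer2a) and 3 did not (Nrarp, Dtx1 and Gata3). This counts genes, and Fcer2a has 3 windows, so it is not the same measure as the 25.6% of windows. No window was at hand for Hes1, Hey1, Heyl, Dtx4, Myc, Ccnd1 and Sox9. Stretches of 40 bases around the match are given for the tested targets, each on the strand of its gene and with the match in capitals. Hey2 held 2 matches, of which 1 is shown:
Hes5, chr4:154960691-154960730, plus strand: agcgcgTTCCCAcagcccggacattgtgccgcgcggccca
Hes5, chr4:154960835-154960874, plus strand: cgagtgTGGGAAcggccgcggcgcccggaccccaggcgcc
Hey2, chr10:30842957-30842996, minus strand: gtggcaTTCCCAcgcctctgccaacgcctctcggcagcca
Hes7, chr11:69120267-69120306, plus strand: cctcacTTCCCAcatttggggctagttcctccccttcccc
Olfm4, chr14:80000262-80000301, plus strand: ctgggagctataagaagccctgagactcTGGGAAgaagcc
The window of Sprr4 held 1 match, which lies after the gene start, whereas the matches shown above lie before it. Those of Tmod4 and Tpm3 held none. Stretches of Sprr4 and Tmod4 are shown because both genes were called on chromosome 3, and the 100 bases of Tmod4 end at its start:
Sprr4, chr3:92500471-92500500, minus strand: ctgaaacatgccTTCCCAtcagcatcagaa
Tmod4, chr3:95124414-95124513, plus strand: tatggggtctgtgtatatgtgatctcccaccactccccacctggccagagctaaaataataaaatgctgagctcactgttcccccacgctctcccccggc
A match is a run of letters and not a shown binding site.

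No Notch target was called among 14 tested. The list median was 0.27, with 10 differences positive and 4 negative; over all tested genes 53.2% were positive. Hes1, the main Hes repressor of the gut epithelium, had 8.21, 8.31 and 8.19 in Notch2IC and 7.99, 7.98 and 8.0 in Notch2fl. All 3 Notch2IC arrays were above, by a small margin (0.24 ± 0.19, 95% interval -0.13 to 0.62, adjusted p = 0.954 in limma). Hey1, a repressor of the Hey family, had 4.62, 5.88 and 7.0 in Notch2IC and 4.74, 5.03 and 4.78 in Notch2fl. In Notch2IC, replicates 2 and 3 were above every Notch2fl array, and replicate 1 was below them (0.98 ± 0.33, adjusted p = 0.844). Without Notch2IC replicate 1, the difference of Hey1 was 1.59 and was called (adjusted p = 0.0174). Without Notch2IC replicate 3, the highest array, it was 0.40. With the Lgr5 driver, Hey1 had 6.39, 6.68 and 5.73 in Notch2IC against 5.08, 5.43 and 4.57 in Notch2fl, without overlap and not called (1.24, adjusted p = 0.26), and pL2 alone had 4.82, 4.29 and 4.86.

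Dtx1, a ubiquitin ligase of the Deltex family that Notch induces in lymphocytes, had its 3 Notch2IC arrays in the same order as Hey1, with 4.61, 5.76 and 5.90 in Notch2IC against 4.45, 4.68 and 4.98 in Notch2fl (0.72 ± 0.33, adjusted p = 0.929 in limma). Sox9, a factor of progenitor cells, was the other target without overlap, with 9.29, 9.51 and 10.08 against 8.67, 8.90 and 9.26 (0.69 ± 0.39). Olfm4, a stem cell gene and Notch target of the intestine, had 8.59, 8.92 and 8.76 against 6.67, 8.60 and 8.02 (0.99 ± 0.59), with Notch2fl replicate 1 by far the lowest. Among the others, Hes5 had 3.74, 4.01 and 4.16 against 3.32, 3.54 and 4.01 and Nrarp, a feedback inhibitor of Notch, had 8.26, 8.21 and 8.33 against 8.59, 8.01 and 7.97. Both overlapped between groups. Heyl, Hes7 and Hey2 differed by 0.15, -0.19 and -0.04.

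**Figure D3:**
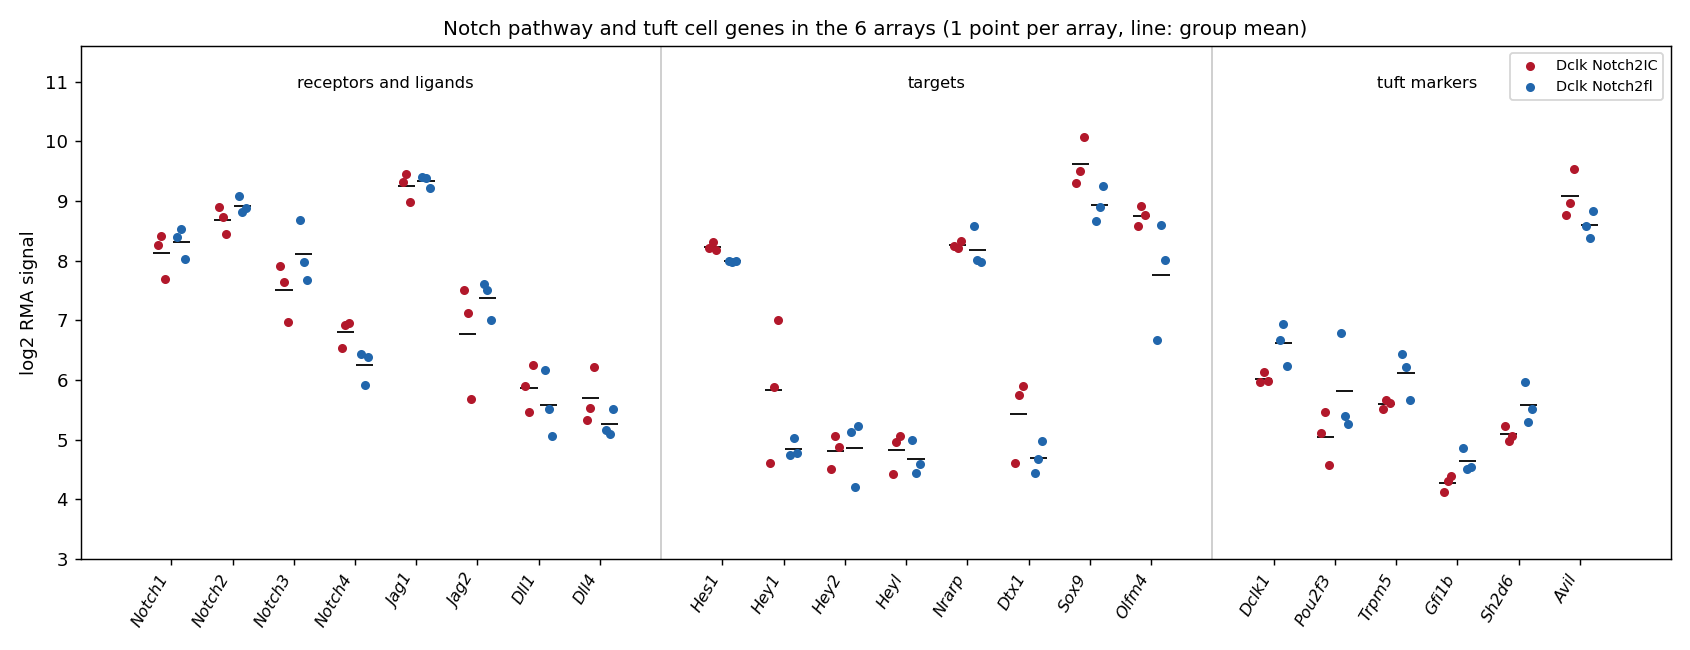
The log2 expression level (vertical axis) of Notch pathway and tuft cell genes on the 3 Notch2IC arrays and the 3 Notch2fl arrays with the Dclk driver. Points are arrays and short lines are group means. Notch2 overlapped between groups, Hey1 was high on 2 of 3 Notch2IC arrays (5.88 and 7.0), and Dclk1 was lower on all 3 Notch2IC arrays (5.96 to 6.13, against 6.23 to 6.95).

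Tuft cell genes had mostly negative differences, with no call among 13 tested. Their median was -0.32 with 9 negative and 4 positive. All Notch2IC arrays lay below all Notch2fl arrays in 4 of them (Dclk1, Trpm5, Gfi1b and Sh2d6) and above in none. The shares over all tested genes were 5.84% below and 7.75% above. Dclk1, the gene that gives the driver its name, had 5.96, 6.13 and 5.98 in Notch2IC and 6.68, 6.95 and 6.23 in Notch2fl, with 6.44, 5.75 and 6.21 in pL2 alone. The difference was -0.59 ± 0.22 (95% interval -1.04 to -0.14, adjusted p = 0.929 in limma). Trpm5 had 5.52, 5.66 and 5.61 against 6.45, 6.23 and 5.66, apart at the edge by less than the rounding. Gfi1b, a zinc finger repressor made in tuft cells, had 4.12, 4.30 and 4.40 against 4.85, 4.51 and 4.55. Pou2f3 overlapped, with 5.12, 5.46 and 4.57 against 6.79, 5.41 and 5.27 (-0.77 ± 0.48), and replicate 1 of Notch2fl was far above the rest. The list averaged 5.33, 5.27 and 5.25 in Notch2IC against 5.66, 5.54 and 5.26 in Notch2fl. Since that replicate also stood apart in intestinal genes, the median was taken without it and was -0.25; how far intestinal tissue on that array bears on the tuft values was not tested. With the Lgr5 driver the tuft median was 0.31, and the Dclk1 difference was 0.32. There, Notch2IC replicate 3 and Notch2fl replicate 2 were high in enterocyte genes (means of 10.32 and 9.91), and without both arrays, a setting chosen after seeing the data, these values were 0.19 and 0.24. The 2 Dclk1 differences differed by -0.92 ± 0.31 (unadjusted p = 0.00599, adjusted p = 0.732 in limma), which is not a call.

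Factors of secretory fate were mixed. Of 8 listed, 5 were tested, 4 of them positive, with a median of 0.13 and none called. Spdef, which drives goblet cell maturation, had 8.29, 8.65 and 8.42 in Notch2IC against 7.94, 7.59 and 7.90 in Notch2fl, without overlap (0.65 ± 0.33, adjusted p = 0.929 in limma). The 11 goblet cell genes had a median of -0.11, and 0.29 without Notch2fl replicate 1, where Muc2 stood at 9.99.

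Neutrophil genes had the highest median of the 38 lists apart from that of 4 tested sex-linked genes (1.45, and -0.05 without Notch2IC replicate 2). Of 16 listed, 13 were tested and none was called. The median was 0.95, 11 were positive, and 7 had all Notch2IC arrays above all Notch2fl arrays (7.75% of all tested genes did). The list averaged 6.62, 6.60 and 6.64 in Notch2IC and 5.90, 6.19 and 5.94 in Notch2fl, with 6.35, 6.81 and 7.56 in pL2 alone. So Notch2IC lay within the range of pL2 and Notch2fl below it. Lcn2, an iron-binding protein of neutrophil granules and inflamed epithelium, had 8.80, 9.15 and 9.97 against 7.42, 8.04 and 8.61 (1.28 ± 0.47, adjusted p = 0.903 in limma). Ly6g, a neutrophil surface protein, had 5.47, 4.97 and 4.99 against 3.73, 3.91 and 4.10. Retnlg, a resistin-like protein of neutrophils, had 7.30, 6.70 and 7.33 against 5.82, 5.15 and 4.37. Both were apart without a call, with differences of 1.23 and 2.0. S100a8, a calcium-binding protein of neutrophils that squamous cells also make, overlapped (0.56). The neutrophil median was 0.60 without replicate 1 of Notch2fl.

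Cytokines of the IL-1 and NF-kB pathways had mostly positive differences. Of 23 tested, 20 were positive, with a median of 0.52 and no call. All Notch2IC arrays lay above all Notch2fl arrays in 5, and below in 1, the inhibitor Nfkbia (-0.35). Among all tested genes these shares were 7.75% and 5.84%. Il1b, the mouse gene of the cytokine that the pL2 model is built on, had 7.88, 7.95 and 7.46 in Notch2IC and 6.23, 7.23 and 5.88 in Notch2fl, with 7.17, 7.25 and 8.88 in pL2 alone. All 3 Notch2IC arrays exceeded all 3 Notch2fl arrays, and Notch2IC lay within the range of pL2 while 2 of 3 Notch2fl arrays lay below it (1.32 ± 0.65, adjusted p = 0.929 in limma). Interferon response genes had a median of 0.25 (15 of 19 positive), MHC class II genes -0.22 (7 of 8 negative), T and NK cell genes -0.28 (8 of 9 negative), macrophage genes 0.00, and B and plasma cell genes 0.23 (5 of 6 positive). None of these members was called. Among 9 tested mast cell genes with a median of -0.24, Mcpt4, a mast cell protease, had 3.19, 7.07 and 7.60 in Notch2IC against 3.24, 3.31 and 3.66 in Notch2fl, high on replicates 2 and 3 of Notch2IC and at the Notch2fl level on replicate 1 (2.55 ± 1.17).

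Squamous suprabasal genes had mostly negative differences. Of 26 tested, 22 were negative with a median of -0.61, and none was called. In 5, all Notch2IC arrays lay below all Notch2fl arrays, against 5.84% of all tested genes. Lor, a main protein of the cornified envelope, had 12.54, 12.33 and 9.22 in Notch2IC against 13.05, 12.59 and 12.58 in Notch2fl, and Flg, the filaggrin precursor, had 9.56, 9.67 and 5.27 against 10.53, 9.93 and 9.60. Replicate 3 of Notch2IC carried most of both differences, the same array that was low in Lce genes. Krt13, the suprabasal keratin of the oesophagus, differed by -0.64, Crnn by -0.93 and Sprr3 by -1.18. Squamous basal genes had a median of 0.00 over 10 tested, with Krt14 at -0.04. Krt15, a basal keratin, and Trp63, the p63 factor of squamous progenitors (-0.74), had all Notch2IC arrays below all Notch2fl arrays. Krt15 had 6.53, 6.64 and 4.80 in Notch2IC against 7.75, 8.60 and 7.68 in Notch2fl and 5.72, 5.99 and 5.85 in pL2 alone (-2.01 ± 0.60, adjusted p = 0.732 in limma).

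Columnar keratins and claudins had a median of 0.35, with 10 of 12 positive and none called. In 5 of them all Notch2IC arrays lay above all Notch2fl arrays and in 1 below, against 7.75% and 5.84% of all tested genes. Their differences ran from -1.84 to 0.79. Krt18, a keratin of simple epithelia, had 9.99, 10.34 and 10.49 in Notch2IC against 9.76, 9.73 and 9.99 in Notch2fl, apart by less than the rounding. Epcam differed by 0.39 and Cldn2, a leaky-junction claudin, by 0.79. Gastric neck and chief cell genes had a median of 0.27 (6 of 7 positive), gastric pit genes 0.05, parietal cell genes 0.03 and columnar stem cell genes 0.04. Intestinal lists were set by Notch2fl replicate 1: the median of the 14 enterocyte genes was -0.66, and 0.03 without it, and that of the 7 tested Paneth genes was -1.14, and 0.38 without it. For skeletal muscle genes these medians were -0.40 and 0.05. Medians of other lists were nearer that of all genes (0.02), among them fibroblast and matrix genes (0.10), endothelial genes (-0.04), smooth muscle genes (-0.03), cell cycle genes (0.19), Wnt targets (-0.21) and cholesterol synthesis (-0.02); pancreatic acinar genes were at 0.52, with 7 of 8 positive. No member of any of the 38 lists was called.

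**Figure D4:**
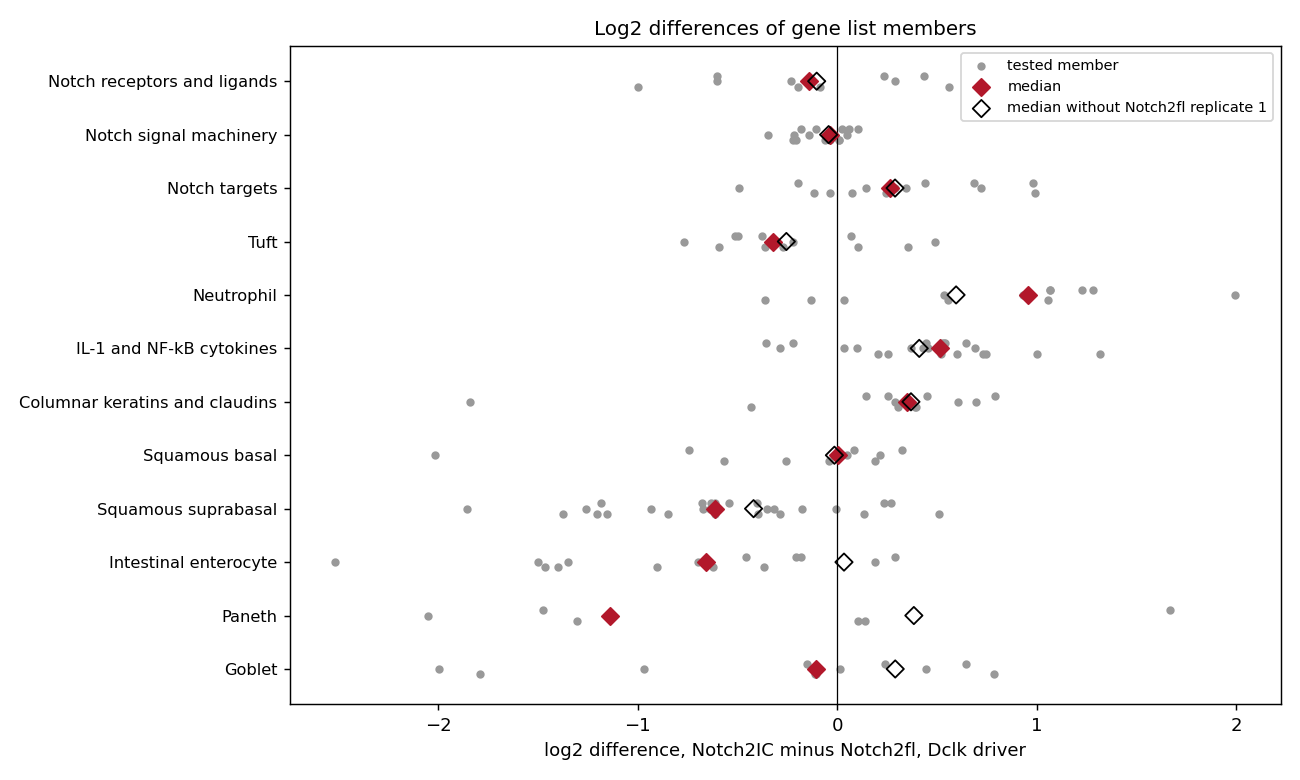
The median log2 difference of Notch2IC minus Notch2fl (Dclk driver, horizontal axis) of gene lists, for 12 of the 38, over all 6 arrays (filled diamonds) and without Notch2fl replicate 1 (open diamonds), with grey points for the tested members. The neutrophil median was 0.95 and 0.60 without that array, while the Paneth median was -1.14 and 0.38 without it.

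Beyond the 5 calls, the genes with the smallest p-values in each direction were examined; none of those named in the rest of this paragraph was called. Chil1, a chitinase-like protein of inflammation, had 8.79, 8.24 and 8.84 in Notch2IC and 6.88, 6.24 and 7.18 in Notch2fl, with 7.71, 8.85 and 8.82 in pL2 alone. The Notch2fl arrays were the low ones (1.86 ± 0.51, adjusted p = 0.564 in limma). Madcam1, an adhesion molecule of mucosal vessels that captures lymphocytes, had 4.99, 5.04 and 4.86 against 4.15, 3.81 and 4.40 (0.84 ± 0.23). Cnksr2, a scaffold protein of Ras signalling, had 5.55, 6.28 and 6.53 against 4.50, 4.71 and 4.65 (1.50 ± 0.42), again without overlap. Lower in Notch2IC with small p-values were Lyg1, a goose-type lysozyme, with 4.95, 3.56 and 2.72 against 6.76, 6.71 and 6.12 (-2.78 ± 0.64, adjusted p = 0.3), and Il12rb2, a chain of the interleukin-12 receptor, with 5.39, 4.71 and 3.68 against 7.11, 7.28 and 6.20 (-2.27 ± 0.57, adjusted p = 0.556). Their groups were widely apart. Krt76, a keratin of oral squamous epithelium, had 3.30, 2.87 and 3.08 against 5.18, 4.63 and 4.20 (-1.59 ± 0.38, adjusted p = 0.382). Neto2, an auxiliary subunit of kainate receptors, had 4.87, 4.92 and 4.61 against 5.97, 5.81 and 5.28 (-0.89 ± 0.21, adjusted p = 0.382), and Apcdd1, an inhibitor of Wnt signalling, 7.50, 7.47 and 6.80 against 7.75, 9.08 and 8.15 (-1.07 ± 0.28, adjusted p = 0.556). The ribosomal protein gene Rpl9 had a difference of opposite sign to Rpl3, with 7.34, 7.18 and 7.50 against 8.06, 8.34 and 8.01 (-0.80 ± 0.21, adjusted p = 0.556); a second Rpl9 entry overlapped (0.22).

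Set against pL2 alone, the 2 groups differed in how many genes were called. Notch2IC minus pL2 gave 3 calls (0.0197% of genes), 2 higher (0.0131%) and 1 lower (0.00656%). Notch2fl minus pL2 gave 39 (0.256%), 26 higher (0.171%) and 13 lower (0.0853%). Both comparisons use the same 3 pL2 arrays, which also had no listed tamoxifen, so the values are only set side by side. Lyg1 differed from pL2 by 3.69 in Notch2fl (adjusted p = 0.00507 in limma), as pL2 had 3.34, 2.46 and 2.72. Neto2 (1.35, adjusted p = 0.00184), Apcdd1 (1.76, adjusted p = 0.00184), Il12rb2 (2.85, adjusted p = 0.017), Krt76 (1.71, adjusted p = 0.0368) and Lce1g (2.01, adjusted p = 0.0361) were likewise called higher in Notch2fl than in pL2. None of these 6 was called between Notch2IC and pL2. These 6, like Tpm3, Sprr4 and 5830417I10Rik above, were named for their p-values between Notch2IC and Notch2fl. The same Notch2fl arrays enter both comparisons, so the pL2 values are no independent support. The 3 calls of Notch2IC against pL2 were Rpl3 (2.07, adjusted p = 0.000729), Trmt112, a partner protein of methyltransferases (1.00, adjusted p = 0.00208), and Gt(ROSA)26Sor (-1.40, adjusted p = 0.0155). Trmt112 had 9.28, 9.23 and 9.38 in Notch2IC, 9.04, 9.02 and 9.38 in Notch2fl and 8.30, 8.18 and 8.40 in pL2, so it was high in both Notch2 groups. Gt(ROSA)26Sor, the transcript of the locus often used to place transgenes, had 3.70, 3.95 and 4.97 in Notch2IC, 4.76, 4.86 and 5.26 in Notch2fl and 5.65, 5.93 and 5.23 in pL2. Its difference between Notch2IC and Notch2fl was -0.76 ± 0.25 (adjusted p = 0.841 in limma). Its mean was 4.20 in Dclk Notch2IC, the lowest group mean of the series, and 5.60 in pL2, the highest. Groups without Notch2IC also lay below pL2, with means of 4.55 in the Dclk group with floxed Notch1 and 4.72 in Lgr5 Notch2fl. A level below pL2 was thus not particular to Notch2IC. Trmt112 and Gt(ROSA)26Sor were named after their values were seen, because the calls were so few.

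Genes called with the Lgr5 driver alone were looked up with the Dclk driver. Alox15, a lipoxygenase that makes lipid mediators, had 5.41, 6.50 and 8.76 in Dclk Notch2IC against 5.01, 4.78 and 4.69 in Dclk Notch2fl. All 3 Notch2IC arrays were above, by very different margins (2.06 ± 0.69, adjusted p = 0.841 in limma). The Lgr5 driver gave a difference of 3.66 (adjusted p = 0.0132). Alox12e, a related lipoxygenase, had 2.63, 3.90 and 5.21 against 2.62, 2.65 and 2.50 with the Dclk driver (1.32, adjusted p = 0.772) and differed by 2.47 with the Lgr5 driver. Kcnh5, a voltage-gated potassium channel, differed by 1.34 and 2.34, and Clca3a2 of the chloride channel accessory family by 0.83 and 2.82. Of the 3 Dclk Notch2IC arrays, replicate 3 was the highest and replicate 1 the lowest in Alox15, Alox12e, Hey1, Dtx1 and Mcpt4 alike. This order was not set in the plan, and its share over all genes was not counted. Columnar keratins and claudins averaged 7.89, 8.38 and 8.72 on replicates 1 to 3, and squamous suprabasal genes 10.42, 9.93 and 8.99. How far tissue make-up bears on the order was not tested. Gpr31b (-0.04 against 0.88) and Gpn2 (0.10 against 0.87) were near 0 with the Dclk driver. The remaining Lgr5-only calls, lower in Notch2IC there, were Gm7850 (-1.39 against -2.43) and E130008D07Rik (-0.21 against -1.46). Both fall outside the naming rule.

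**Figure D5:**
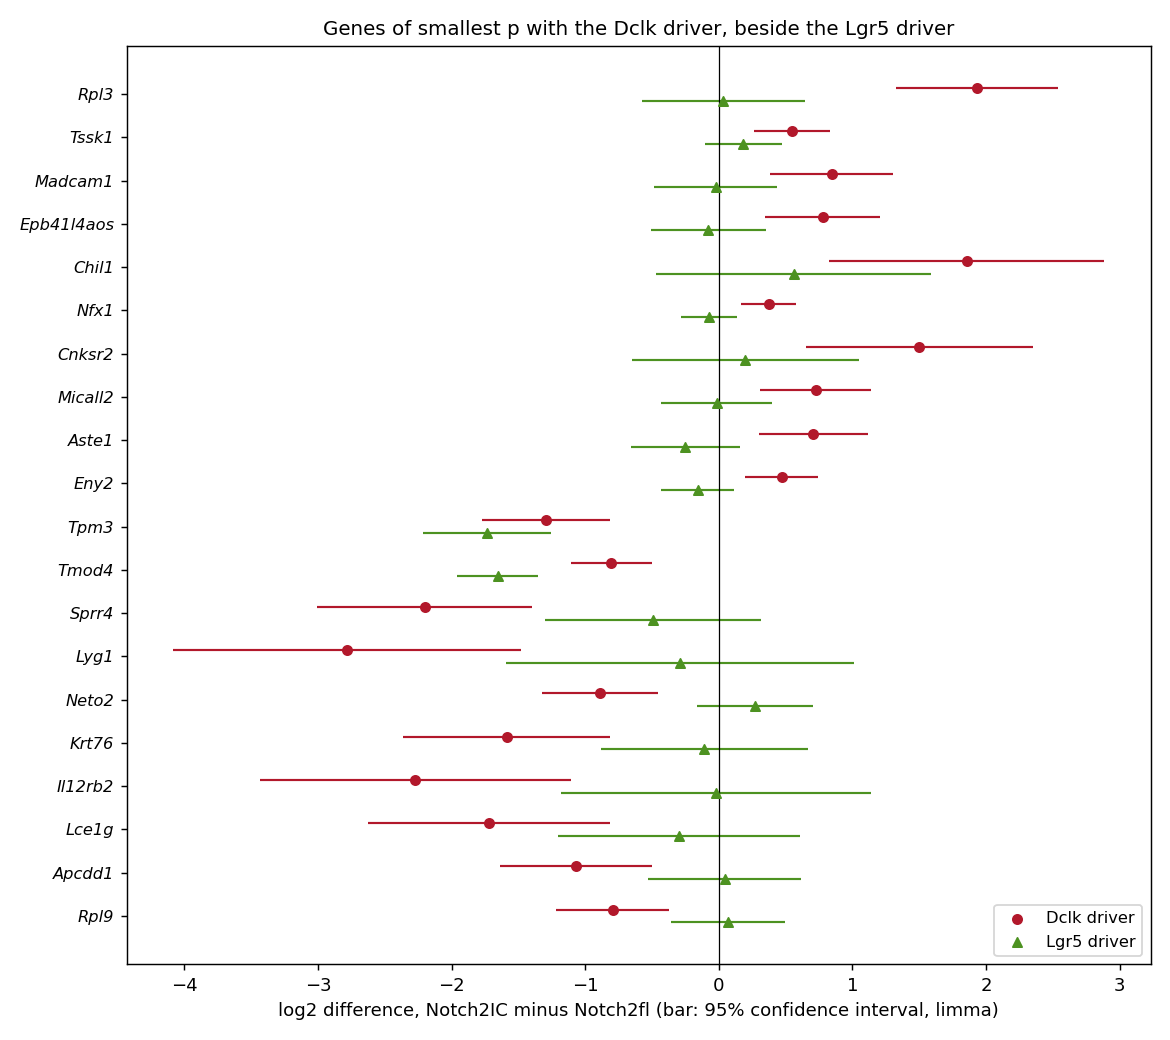
The log2 difference of Notch2IC minus Notch2fl (horizontal axis) with the Dclk driver (circles) and the Lgr5 driver (triangles), for the 10 genes of smallest p in each direction with the Dclk driver. Bars are 95% confidence intervals from limma. Tpm3 and Tmod4 lie below 0 under both drivers, whereas Rpl3 was 1.93 with the Dclk driver and 0.04 with the Lgr5 driver.

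The difference between the drivers was itself tested. No gene was called (0% of 15242 in limma), while 1009 had an unadjusted p below 0.05 (6.62%). Rpl3 (1.90 ± 0.42, unadjusted p = 7.725e-05, adjusted p = 0.688) and Tmod4 (0.85 ± 0.21, unadjusted p = 0.000283, adjusted p = 0.688) were among the smallest p-values, and the Sprr4 effects differed by -1.71 ± 0.56 (unadjusted p = 0.0044, adjusted p = 0.732). Fzd1, a Wnt receptor, had the smallest p among the genes that were lower with the Dclk driver, at -0.43 there and 0.60 with the Lgr5 driver. Rpl3 and Sprr4 are therefore not shown to respond differently under the 2 drivers, although they were called under 1 of them.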

How the data were processed

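Total RNA of 48 samples in 16 groups of 3 was hybridised to 1-colour Affymetrix arrays. The deposited values are log2 expression levels made by the authors with RMA in Affymetrix Expression Console, per the submitters' processing notes, which give no version; the probe set annotation is that of the platform. RMA corrects background and quantile-normalises the arrays together, which forces like distributions and compresses low signals. The number of arrays limits precision. Of 34390 entries, 23521 carry 1 gene symbol (22180 symbols, the entry with the highest mean over 48 arrays kept), 1814 several and 9055 none, and the last 2 kinds were left out. Genes above their array's median on at least 3 of 48 arrays were tested (15242). limma 3.58.1 in R 4.3.3 fitted 1 mean per group over all 48 arrays (32 residual degrees of freedom), with two-sided moderated tests for 5 comparisons, Benjamini-Hochberg adjusted within each; the test was checked on simulated data. Genes were named by these rules: fixed Notch and tuft genes, called genes, the 10 smallest p-values in a direction with few calls, up to 4 members per list, and the 5 smallest p-values of the driver difference in each direction. Predicted, Riken and similar genes were left out, with exceptions stated. Lists are described by counts and medians. The members and the 38 lists were chosen with earlier results of these data known.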

Additional observations from a re-analysis of the deposited data

Results flagged for a closer look

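Entries with no gene symbol were outside the main measurement. Of 3501 such entries that passed the filter, 2 had an adjusted p below 0.05 between Notch2IC and Notch2fl with the Dclk driver when all entries were tested in limma, and both are given because they carry a signal in data that the comparison above does not use. Entry 17549918 had 2.77, 2.78 and 2.86 in Notch2IC and 9.74, 5.07 and 6.47 in Notch2fl, means of 2.80 ± 0.05 and 7.09 ± 2.40 (SD, n = 3 each). The log2 difference was -4.29 ± 0.80 (adjusted p = 0.0204), the Notch2fl arrays spread widely, and the Notch2IC levels lay below the array medians (4.03 to 4.27), with no detection call given, so the size of the difference may be only a lower bound; pL2 alone lay between 2.66 and 3.22. On the 42 arrays outside these 2 groups it lay between 2.15 and 6.48 with a median of 2.75, and 2 of them were above the lowest Notch2fl array; with the Lgr5 driver it was 2.62 to 6.48 in Notch2IC and 3.28 to 5.82 in Notch2fl. Entry 17294694 had 4.98, 4.47 and 5.12 in Notch2IC and 6.10, 6.02 and 5.78 in Notch2fl. The log2 difference was -1.11 ± 0.21 (adjusted p = 0.0259), and the 42 other arrays lay between 4.64 and 5.90. What these entries measure is not named in the tables used here.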

How the results depend on the processing

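The count of 5 calls between Notch2IC and Notch2fl was 3 when all entries of a gene were averaged. Rpl3 (0.76, adjusted p = 0.356 in limma) and Tpm3 (-0.45, adjusted p = 0.934) were then lost. The count was 1 in a fit of the compared groups alone and 1 in a fit of the 6 Notch groups, Rpl3 in both. Why the other calls were lost in these 2 fits was not tested. Array quality weights gave 20 (10 higher and 10 lower, the 5 calls among them, the weights stopping before convergence). Leaving out arrays high in liver or intestinal transcripts gave 3 (Rpl3, Tmod4 and Tpm3). The other 9 alternatives gave 5 or 6, the added gene being Neto2 with age as a covariate (adjusted p = 0.0412). Leaving out each array in turn gave 0 to 7 calls. In 14 alternatives and 6 leave-one-out fits, Rpl3 was called in 13 and 5, Tmod4 in 12 and 1, 5830417I10Rik and Sprr4 each in 11 and 2, and Tpm3 in 11 and 0; none changed sign. The test between drivers gave 0 calls in all 14 alternatives and 12 leave-one-out fits, with 473 to 1775 genes at an unadjusted p below 0.05 in limma. Of 38 list medians, 11 changed sign without Notch2fl replicate 1 and 10 without Notch2IC replicate 2, settings chosen after seeing the data. No paired analysis was possible because the labels give no replicate numbers that tie samples of one group to another. With 3 arrays a group, precision is limited to the stated errors and intervals.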
